A study of Mus musculus with 13 samples.

Results

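Retinas of Rpe65-/- mice fed a diet with tamsulosin, metoprolol and bromocriptine (TMB) were compared with retinas of Rpe65-/- mice kept on base chow (vehicle), gene by gene and across groups of genes of known function. The comparison used the 9 libraries that the deposited labels place in these groups, out of 13 in the series. Vehicle comprised F1, F2, M4 and M5 and TMB comprised F1, F3, F4, M5 and M6, where the letter is the labelled sex and the number is that of the library. All 9 mice carried the Rpe65 null genotype. The labels give a C57BL/6J background, whereas the reporting notes of the study describe the exact background of this line as unknown. The TMB diet began at postnatal day 22, both groups were collected at day 64, and RNA was taken from 1 retina per mouse. Per the methods of the study, ketamine and xylazine were given at day 64 for an electroretinogram, a recording of light responses. The mice were killed under that anaesthesia. Polyadenylated RNA was sequenced and reads were counted per gene. The 4 wild-type libraries stayed outside the fit, and their values appear below only where they bear on a named result. The methods of the study give fewer wild-type mice for this experiment than the 4 libraries so labelled. The growth and treatment notes attached to these samples describe another mouse line (rd10), so the diet and its timing were taken from the design text. The reporting notes describe random assignment of animals to groups, and whether the libraries were prepared together was not given in the sources used here.

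RPE65 is the isomerase of the retinal pigment epithelium that regenerates 11-cis retinal, the chromophore of rod and cone opsins. Without it rods hold opsin with almost no chromophore, cones lose their opsin transport and die early, and rods degenerate slowly, as in Leber congenital amaurosis. Tamsulosin blocks alpha-1 adrenergic receptors, metoprolol blocks beta-1 adrenergic receptors and bromocriptine activates dopamine receptors of the D2 type, so that the combination acts on receptors that couple to calcium release and to cAMP. As the samples were whole retina, fewer cells of a type and less RNA per cell cannot be told apart in any value below.

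The labels were checked before the comparison. Rpe65 counts were 6, 8, 6 and 1 in vehicle F1, F2, M4 and M5 and 0, 0, 3, 4 and 7 in TMB F1, F3, F4, M5 and M6, against 72 to 226 in wild type. A count of 0 allows up to 3 counts, or 0.217 and 0.219 CPM (counts scaled to a nuclear total of 1000000) in TMB F1 and F3. The sample list deposited with the tables gives vehicle F1 the wild-type genotype, whereas the label and the count of 6 place it with the knockouts. Vehicle F2 is labelled female but had 1 count of Xist, which is transcribed from the inactive X chromosome, and 1400 of Eif2s3y, which lies on the Y chromosome, as the male libraries did. Rod, bipolar, Müller, amacrine and ganglion cell markers were present in all 9 libraries, and the cone markers Opn1sw and Arr3 stood at 3.23 to 17.3 and 30.8 to 55.8 CPM. Lens transcripts differed between dissections, with 10 lens genes summing to 3100 CPM in vehicle M4, 442 in vehicle F1 and 276 in TMB M6 and to between 7.71 and 77 in the other 6 libraries. Total counts were 14155121 to 16861577 per library.

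TMB and vehicle retinas differed in many genes by small amounts. Of 16339 genes tested, 1161 were higher and 1241 lower in TMB at a Benjamini-Hochberg adjusted p under 0.05 by the edgeR quasi-likelihood test, which is 14.7% of genes in all, 7.11% higher and 7.6% lower. The median log2 fold change of the called genes was 0.34 for those that rose and -0.39 for those that fell, and 353 of them changed by at least 1.5-fold and 72 by at least 2-fold. The groups did not overlap in 1674 of the called genes, while 14.7% of all genes tested did not overlap. Calls depended on single libraries. Without vehicle M5 the same test called 3 genes, without vehicle F1 63 and without TMB M6 380, and leaving out TMB M5 or TMB F1 gave 1154 and 1421. Without vehicle F2, whose sex label its counts contradict, 3151 genes were called, and 3102 without both vehicle F2 and the lens-rich vehicle M4. The 3 genes called without vehicle M5 were Arl3, Timm13 and Gipc1, so every other call of a nuclear gene made below without the GC offset was lost when that library was left out. The bar plot of calls per omitted library shows both series of counts.

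**Figure D1:**
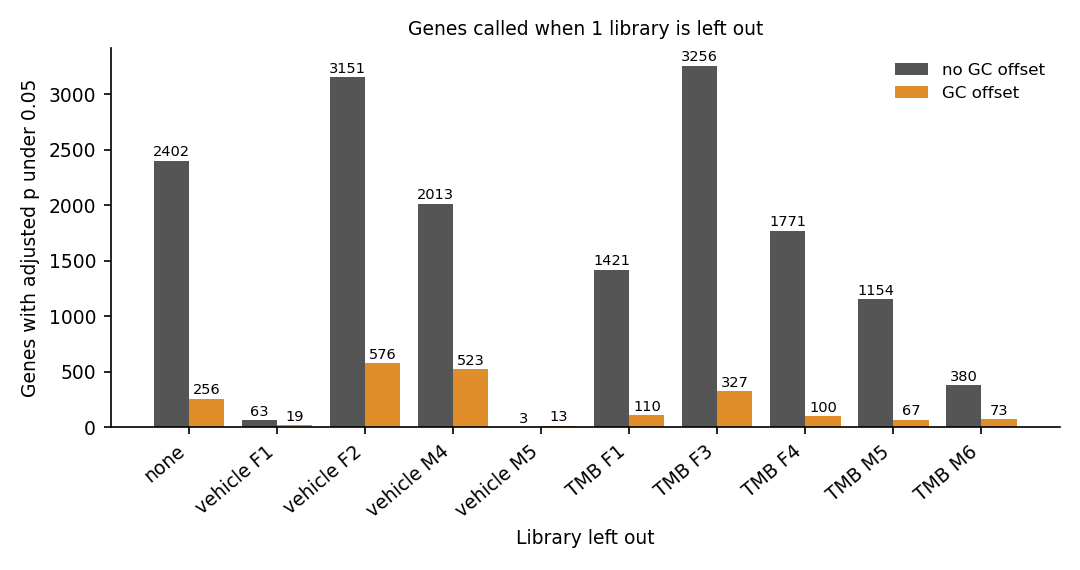
Number of genes with an edgeR adjusted p under 0.05, TMB against vehicle, with all 9 libraries (none) and with each library left out in turn, without (grey) and with (orange) an offset for transcript GC content. Without the offset the bars run from 3 (vehicle M5 left out) to 3256 (TMB F3 left out).

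The direction of change followed base composition. The share of bases that are G or C in the longest annotated transcript had a median of 41.8% in genes that rose, 56.9% in genes that fell and 49.2% over all genes tested. In the quintile of genes with the lowest GC content (28.7 to 43.4%), 758 genes rose and 16 fell, with a median log2 fold change of 0.24, and in the highest quintile (55.2 to 78.3%) 3 rose and 820 fell, with a median of -0.26. The middle quintile had 75 that rose and 88 that fell and a median of 0.00. For each library the mean level of the highest quintile was set against that of the lowest quintile, on a log2 scale around the mean of the 9 libraries. This contrast was 0.43, 0.10, 0.23 and 0.38 in vehicle F1, F2, M4 and M5 and -0.57, 0.02, -0.09, -0.19 and -0.30 in TMB F1, F3, F4, M5 and M6. All 4 vehicle libraries lay above all 5 TMB libraries, and the difference of -0.51 had an exact two-sided permutation p of 0.0159, where the smallest p this design allows is 0.00794. On a scale around all 13 libraries the wild-type libraries took -0.67, -0.60 and -0.88 (M1, M2 and F3) and 0.57 (F4), against 0.28 to 0.61 in vehicle and -0.40 to 0.19 in TMB, so that 1 genotype without drug spanned more than both diets together. What set the contrast was not tested. When a per-library trend on GC content was added to the fit as an offset, 84 genes were higher and 172 lower (1.57% of 16272 genes), and 191 of these 256 were also called without it, all in the same direction (61 higher, 130 lower). Most results below are therefore given on both scales, and those of mitochondrial genes only without the offset.

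**Figure D2:**
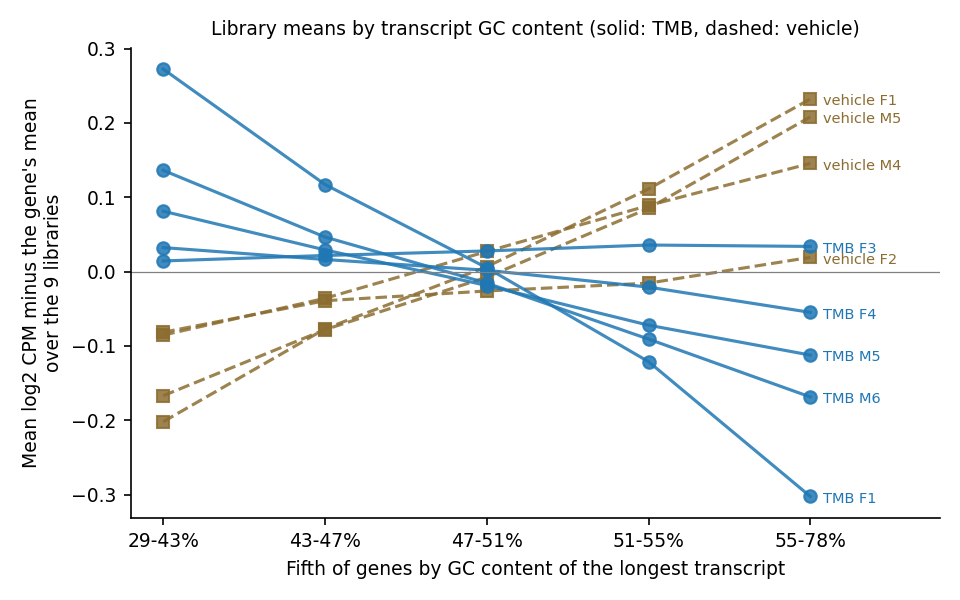
Mean log2 CPM of each library relative to the mean of each gene over the 9 libraries, for quintiles of genes ordered by GC content of the longest transcript. Vehicle libraries (dashed, squares) climb toward GC-rich genes by 0.10 to 0.43 from the lowest to the highest quintile, while TMB libraries (solid, circles) go from -0.57 to 0.02.

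**Figure D3:**
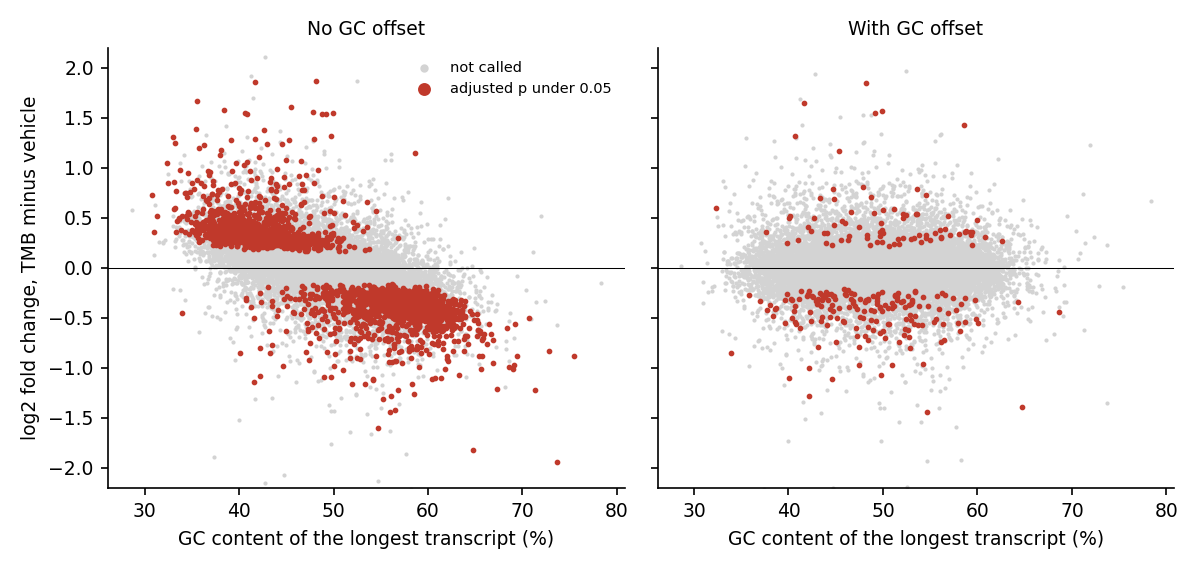
Log2 fold change, TMB minus vehicle, of each gene tested against GC content of its longest transcript, without (left) and with (right) the GC offset, with genes of adjusted p under 0.05 in red. On the left low-GC genes lie above 0 and high-GC genes below it, and of 16272 genes 15 on the left and 16 on the right lie beyond the axis limit of 2.2 and are not drawn.

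Coding stretches of 3 genes are printed below, with G and C in capitals and the other bases in lower case. Each is the middle 90 coding bases, 5′ to 3′, of the GENCODE M21 annotation on GRCm38. Rnpc3 (chr3:113605066-113630149, minus strand, codons 243 to 272 of 514) encodes a protein of the minor spliceosome and lies in the lowest quintile, with a transcript of 33.1% GC. Gipc1 (chr8:83652676-83664694, plus strand, codons 152 to 181 of 333) encodes a PDZ adaptor of endosomal trafficking and lies in the highest quintile, at 60.6%. Arl3 (chr19:46531108-46573085, minus strand, codons 76 to 105 of 180) is near the median, at 47.2%, and had the smallest p among genes called on both scales.
Rnpc3: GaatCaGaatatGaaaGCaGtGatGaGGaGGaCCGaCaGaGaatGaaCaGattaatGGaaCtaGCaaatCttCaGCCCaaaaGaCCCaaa
Gipc1: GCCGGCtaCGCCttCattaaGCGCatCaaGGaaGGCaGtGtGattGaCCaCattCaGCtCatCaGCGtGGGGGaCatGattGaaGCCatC
Arl3: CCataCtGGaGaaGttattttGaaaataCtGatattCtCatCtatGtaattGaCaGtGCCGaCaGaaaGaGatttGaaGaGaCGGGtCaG
The GC share of these stretches was 41.1%, 53.3% and 37.8%. The Rnpc3 stretch thus held more G and C than the Arl3 stretch, the reverse of the order of their longest transcripts. The longest Arl3 transcript, which gives the 47.2%, is annotated as a processed transcript, and the stretch comes from a coding one. In the order of libraries used above, Rnpc3 was measured at 107, 99.4, 116 and 91.1 CPM in vehicle and 173, 141, 146, 159 and 158 in TMB. It rose by 0.59 ± 0.08 (log2, SE, edgeR adjusted p = 0.0107), and with the GC offset the value was 0.15 ± 0.08 (adjusted p = 0.307). Gipc1 was at 38.3, 36.3, 42.0 and 39.9 CPM in vehicle and 24.2, 26.5, 26.5, 24.5 and 25.3 in TMB. It fell by 0.62 ± 0.07 (edgeR adjusted p = 0.00781), and the value with the offset was -0.28 ± 0.08 (adjusted p = 0.0911). Neither gene overlapped between groups.

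Photoreceptor genes split between a small GTPase that fell and cilium genes that rose. ARL3 is the small GTPase that releases lipid-modified cargo from its carriers in the photoreceptor cilium. Arl3 was at 164, 165, 161 and 188 CPM in vehicle and 108, 123, 118, 115 and 114 in TMB, and every TMB library lay below every vehicle library. It fell by 0.55 ± 0.06 (edgeR adjusted p = 0.00781), and by 0.61 ± 0.06 with the GC offset (adjusted p = 0.00251), and it was called in each of the 9 fits that left out a library, on both scales. In wild type it was at 124, 122, 135 and 223 CPM in M1, M2, F3 and F4 on the scale of all 13 libraries, so that the wild-type library with a positive GC contrast lay above vehicle (157 to 185) and the other 3 lay between TMB (107 to 120) and vehicle. Of its 50-base stretches 11.9% also occur in other transcripts.

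RPGR is a scaffold of the connecting cilium whose loss causes X-linked retinitis pigmentosa. Rpgr was at 62.0, 74.6, 75.9 and 60.9 CPM in vehicle and 109, 92.3, 94.4, 96.4 and 111 in TMB. It rose by 0.56 ± 0.09 (edgeR adjusted p = 0.0107), and by 0.37 ± 0.06 with the offset (adjusted p = 0.0165). Bbs5, a subunit of the ciliary cargo coat known as the BBSome, was at 67.6, 73.7, 76.9 and 71.1 CPM in vehicle and 113, 89.0, 100, 85.9 and 100 in TMB. Ift88, a carrier of intraflagellar transport, was at 33.9, 35.9, 40.2 and 36.2 CPM in vehicle and 50.5, 47.6, 48.7, 44.4 and 51.6 in TMB. Both rose without overlap between groups, by 0.43 ± 0.08 and 0.41 ± 0.07 (edgeR adjusted p = 0.0148 for each), and both missed the threshold with the offset (adjusted p = 0.134 and 0.155). Of 30 outer segment and cilium genes tested, 7 rose and 2 fell (30% called, against 14.7% of all genes), with a median log2 fold change of 0.16 against -0.00 over all genes. With the offset 2 rose and 1 fell and the median was 0.10. The median GC content of the list was 47.4%. Without vehicle F1, vehicle M5 or TMB M6 the list had 1, 0 and 3 genes that rose and 1, 1 and 2 that fell.

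The median change of rod phototransduction genes was near 0. Of 30 rod genes 4 rose and 1 fell (16.7% called, against 14.7% of all genes). None was called by edgeR with the offset (4 had an unadjusted p under 0.05), where the median was 0.06 against 0.01 without it. Gucy2f, a guanylate cyclase of the outer segment that restores cGMP after light, was at 294, 382, 345 and 307 CPM in vehicle and 502, 386, 412, 415 and 474 in TMB. It rose by 0.40 ± 0.09 (edgeR adjusted p = 0.0216), with TMB F3 only just above vehicle F2, and the value with the offset was 0.20 ± 0.07 (adjusted p = 0.147). Among 15 cone genes 1 rose and 1 fell (13.3% called). Gngt2, the gamma subunit of cone transducin, was at 14.2, 10.3, 10.8 and 12.6 CPM in vehicle and 7.45, 9.04, 9.47, 6.93 and 8.01 in TMB, without overlap. It fell by 0.55 ± 0.13 (edgeR adjusted p = 0.0232), and the value with the offset was -0.45 ± 0.12 (adjusted p = 0.0728).

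Called genes of the synapse and the second-order neurons were mostly lower, while the median of the ribbon synapse list was near 0. Slc17a7 encodes the vesicular glutamate transporter of photoreceptor and bipolar terminals. Its level was 1794, 1884, 1839 and 1862 CPM in vehicle and 1235, 1480, 1426, 1389 and 1452 in TMB, a gap wider than the spread of either group. It fell by 0.40 ± 0.07 (edgeR adjusted p = 0.0126), and the value with the offset was -0.19 ± 0.07 (adjusted p = 0.184). Among 19 genes of the photoreceptor ribbon synapse 2 rose and 3 fell (26.3% called, against 14.7% of all genes), and among 21 genes of the ON bipolar mGluR6 cascade, which carries the rod signal to the inner retina, 0 rose and 3 fell (14.3% called). The 3 were Rgs11, a GTPase activator of that cascade, Gpr179, which anchors such activators at the dendrite tip, and Pcp4. Pcp4 encodes a calmodulin-binding peptide that was counted in this list, and its part in the cascade was not examined. The log2 fold changes of Rgs11, Gpr179 and Pcp4 were -0.30 ± 0.07, -0.34 ± 0.09 and -0.85 ± 0.25, with overlapping groups for Gpr179 and Pcp4. With the GC offset the values were -0.08 ± 0.08, -0.13 ± 0.09 and -0.90 ± 0.25 (edgeR adjusted p = 0.643, 0.440 and 0.0888). Pcp4 was low, at 2.01 to 5.21 CPM in vehicle and 1.46 to 2.33 in TMB (edgeR adjusted p = 0.0427). Without vehicle F2 the Pcp4 call was lost, at -0.59 ± 0.24 (edgeR adjusted p = 0.0962). The level of Pcp4 is also uncertain, as 33.1% of its stretches, compared as for Arl3, occur in Igsf5, which overlaps it on the same strand. The medians of the ribbon synapse and ON bipolar lists were 0.01 and -0.06. Among 18 cone bipolar genes 5 fell and 0 rose (27.8% called), with a median of -0.24. With the GC offset no gene of these 3 lists was called by edgeR (8 ribbon synapse, 2 ON bipolar and 5 cone bipolar genes had an unadjusted p under 0.05). The medians of the ribbon synapse, ON bipolar and cone bipolar lists were then 0.06, -0.02 and -0.12. Without vehicle F1, vehicle M5 or TMB M6, 0 cone bipolar genes were called in each case.

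Müller glia, which recycle glutamate and hold the retina in place, had 3 of 22 homeostatic genes lower and 0 higher, with a median of -0.24 (-0.19 with the offset). The 13.6% called lies near the 14.7% of all genes. Id3, an inhibitor of basic helix-loop-helix transcription factors, was at 22, 19.9, 24.7 and 22.3 CPM in vehicle and 14.0, 16.6, 12.3, 11 and 14.6 in TMB. Every TMB library lay below every vehicle library. It fell by 0.70 ± 0.12 (edgeR adjusted p = 0.0126), and by 0.51 ± 0.11 with the offset (adjusted p = 0.0365). Rlbp1, the retinaldehyde-binding protein of the visual cycle, was at 617, 474, 413 and 597 CPM in vehicle and 400, 445, 380, 395 and 417 in TMB, and vehicle M4 lay inside the TMB range. It fell by 0.37 ± 0.10 (edgeR adjusted p = 0.0366), and the value with the offset was -0.25 ± 0.10 (adjusted p = 0.185). Of 22 genes of gliosis and LIF-STAT3 stress edgeR called none (1 higher and 1 lower at unadjusted p under 0.05, and DESeq2 called 1 higher), and of 20 microglia and complement genes it called none (1 higher and 2 lower at unadjusted p under 0.05, and DESeq2 called 1 lower). Without vehicle F1, vehicle M5 or TMB M6, 1, 0 and 1 of the homeostatic genes fell.

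More genes of protein synthesis and respiration fell than rose, by small amounts. Of 70 cytosolic ribosome genes, 28 fell and 0 rose (40% called, against 14.7% of all genes), with a median of -0.17. With the GC offset, where 1.57% of all genes were called, 15 fell and the median was -0.11. Their median GC content was 51.0%. Rps29, a protein of the small subunit, was at 97.4, 66.0, 76.8 and 78.3 CPM in vehicle and 28.9, 49.4, 49.9, 33.1 and 34.4 in TMB. It fell by 1.02 ± 0.16 (edgeR adjusted p = 0.0107), and by 0.97 ± 0.14 with the offset (adjusted p = 0.00822). Rpl11, a protein of the large subunit, was at 153, 120, 155 and 158 CPM in vehicle and 97.1, 111, 98.6, 83.8 and 97.5 in TMB, so that vehicle F2 was the vehicle library nearest to TMB. It fell by 0.59 ± 0.09 (edgeR adjusted p = 0.0107), and by 0.47 ± 0.07 with the offset (adjusted p = 0.0122). Both levels are uncertain, as 26.5% of the 50-base stretches of Rps29 and 38.2% of those of Rpl11 also occur in pseudogenes or other transcripts. Without vehicle F1, vehicle M5 or TMB M6, 5, 0 and 13 genes of the list fell, and its median stayed between -0.22 and -0.09 under all 32 alternatives.

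The medians of nuclear genes of the respiratory chain were also negative. Of 34 complex I subunits 11 fell and 1 rose (35.3% called, against 14.7% of all genes). Of 39 subunits of complexes II to V 14 fell and 1 rose (38.5% called). Both lists had a median of -0.10. With the offset 6 fell and 0 rose, and 12 fell and 1 rose, while 1.57% of all genes were called. Ndufa2, a complex I subunit, was at 41.2, 30.0, 33.5 and 43.1 CPM in vehicle and 24.2, 22.4, 20.3, 17.0 and 20.3 in TMB. It fell by 0.83 ± 0.12 (edgeR adjusted p = 0.0107), and by 0.75 ± 0.11 with the offset (adjusted p = 0.0119). Cox6b1, a subunit of cytochrome c oxidase, was at 80.0, 72.2, 82.0 and 83.2 CPM in vehicle and 52.5, 66.5, 58.9, 55.3 and 55.4 in TMB. It fell by 0.46 ± 0.07 (edgeR adjusted p = 0.0107), and by 0.41 ± 0.06 with the offset (adjusted p = 0.00962). Neither gene overlapped between groups. The complex I gene that rose was Ndufab1, an acyl carrier protein, at 0.28 ± 0.09 (edgeR adjusted p = 0.0455), with 0.17 ± 0.08 under the offset (adjusted p = 0.256) and overlapping groups. In complexes II to V it was Atpif1, the inhibitor of ATP synthase, at 0.57 ± 0.12, and 0.73 ± 0.14 with the offset (edgeR adjusted p = 0.0186 and 0.0236). The mitochondrial ribosome had 8 of 47 genes lower and 1 higher (19.1% called, nearer to the 14.7% of all genes). Its median was -0.17, and with the offset 2 genes were lower and 0 higher. Without vehicle F1, vehicle M5 or TMB M6 the genes that fell numbered 1, 0 and 8 for complex I and 2, 0 and 7 for complexes II to V.

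Transcripts of the mitochondrial genome did not fall with these subunits. They took 2.69, 3.70, 2.94 and 2.81% of all counts in vehicle and 4.01, 3.37, 3.62, 3.8 and 4.08% in TMB. Vehicle F2, the library whose counts contradict its sex label, lay above TMB F3 and F4, and the other 3 vehicle libraries lay below all of TMB. The means were 3.04 ± 0.456% (SD, n = 4) and 3.78 ± 0.290% (n = 5), with an exact two-sided permutation p of 0.0397, or 0.0794 adjusted over the 2 shares tested. Leaving out 1 library raised p to between 0.0571 and 0.0857 for each library other than vehicle F2, for which the difference was 0.964 percentage points (exact permutation p = 0.0179). Of 15 mitochondrial genes tested in a table of their own, which measures each gene relative to the others, 0 were called by edgeR, 0 by DESeq2 and 0 had an unadjusted p under 0.05. On the scale of nuclear counts 11 of the 15 rose, and without single libraries edgeR called 11 (vehicle F2 or TMB F3 left out), 7 (vehicle M5) or, for each of the other 6, 0 (6 to 10 at unadjusted p under 0.05). mt-Nd2, a complex I subunit, was at 1958, 2730, 2345 and 2102 CPM in vehicle and 3850, 2543, 2959, 3200 and 3901 in TMB. It rose by 0.53 ± 0.16 on that scale (edgeR adjusted p = 0.0368), with TMB F3 below vehicle F2. No GC offset was fitted to the mitochondrial genes or to their share. The GC contrast of nuclear genes was 0.43, 0.10, 0.23 and 0.38 in vehicle and -0.57, 0.02, -0.09, -0.19 and -0.30 in TMB, libraries in the order used above. Libraries with a lower contrast mostly had a higher mitochondrial share, and whether contrast and share were linked was not tested.

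All glycolysis genes called fell and most splicing factors called rose, with few or no calls once GC content was in the fit. Of 25 genes of aerobic glycolysis, the route by which photoreceptors burn most of their glucose, 9 fell and 0 rose (36% called, against 14.7% of all genes). Their median was -0.16 and their median GC content 52.8%. None was called by edgeR with the offset (6 had an unadjusted p under 0.05), where the median was -0.07. Bsg, which encodes basigin, a partner of lactate transporters, was at 682, 632, 615 and 651 CPM in vehicle and 489, 563, 535, 489 and 498 in TMB. It fell by 0.33 ± 0.06 (edgeR adjusted p = 0.0155), against -0.08 ± 0.06 with the offset (adjusted p = 0.525). Of 33 splicing factors 12 rose and 3 fell (45.5% called), with a median of 0.17 and a median GC content of 43.1%. With the offset 1 rose and 2 fell, while 1.57% of all genes were called. Clk1, a kinase of the serine- and arginine-rich splicing proteins, was at 235, 238, 293 and 226 CPM in vehicle and 405, 308, 327, 352 and 383 in TMB. It rose by 0.52 ± 0.09 (edgeR adjusted p = 0.0148), against 0.24 ± 0.07 with the offset (adjusted p = 0.0854). Without vehicle F1, vehicle M5 or TMB M6, 0, 0 and 2 glycolysis genes fell and 0, 0 and 2 splicing factors rose.

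**Figure D4:**
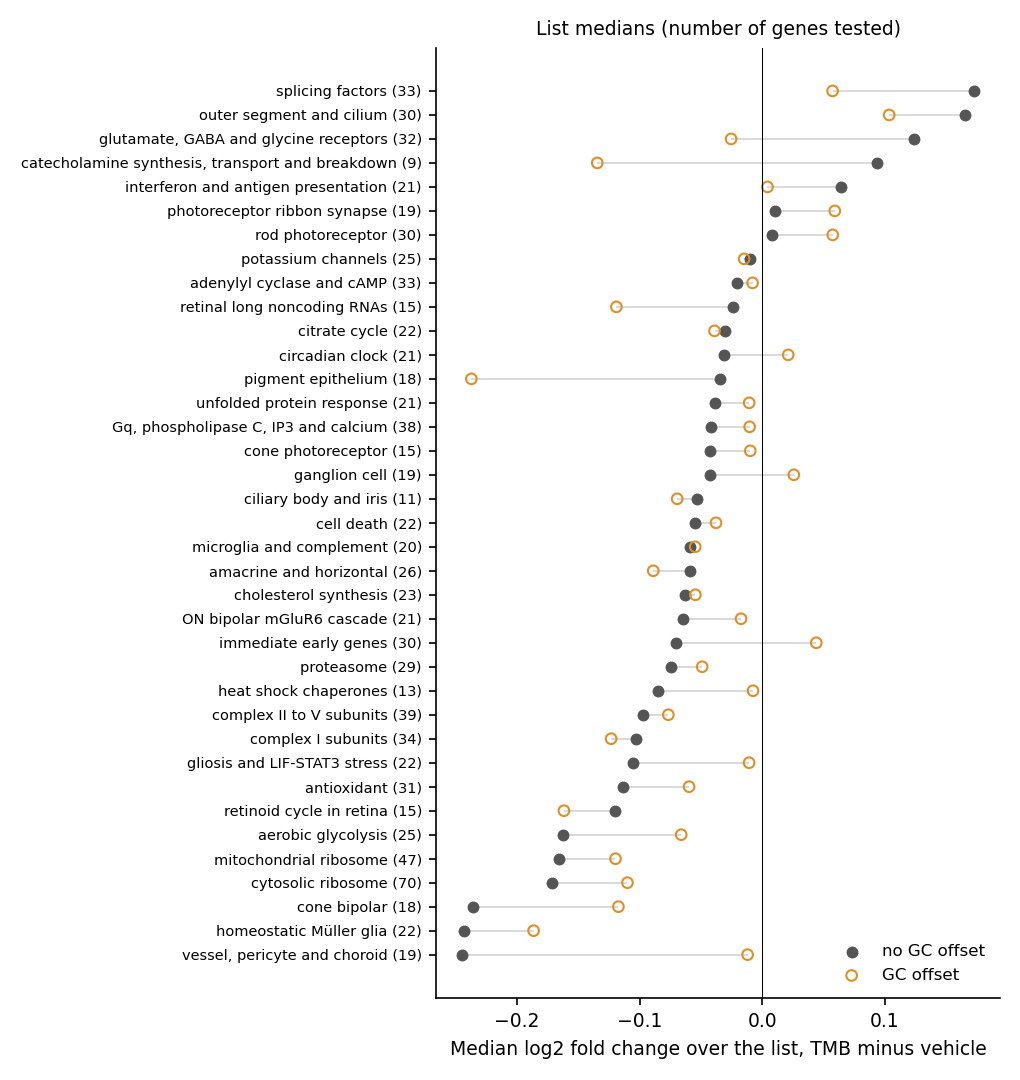
Median log2 fold change, TMB minus vehicle, of each gene list with at least 9 genes tested (number tested in brackets, lens left off), without (grey) and with (open orange) the GC offset. Cytosolic ribosome and mitochondrial ribosome sit at -0.17 and splicing factors at 0.17 without the offset, and most medians lie nearer to 0 with it.

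None of 6 alpha-1, beta-1 and D2-type receptors, the classes through which the 3 drugs are chiefly known to act, was called. Adra1a, Adra1b and Adra1d, the alpha-1 receptors that tamsulosin blocks, had log2 fold changes of -0.34 ± 0.22, -0.03 ± 0.20 and -0.45 ± 0.19 (edgeR adjusted p = 0.287, 0.924 and 0.123), all with overlapping groups. With the GC offset these values were -0.31 ± 0.22, 0.13 ± 0.19 and 0.00 ± 0.15 (edgeR adjusted p = 0.486, 0.776 and 0.996). Adrb1, the receptor that metoprolol blocks, was at 15.9, 13.7, 10.8 and 14.3 CPM in vehicle and 11.3, 13.9, 14.9, 13.9 and 9.68 in TMB, and Drd2, a target of bromocriptine, was at 34.1, 35.5, 28.0 and 30.1 CPM in vehicle and 20.1, 27.3, 29.0, 33.6 and 27.9 in TMB. Their log2 fold changes were -0.10 ± 0.14 and -0.21 ± 0.13 (edgeR adjusted p = 0.657 and 0.255). With the offset these were 0.18 ± 0.12 and -0.05 ± 0.12 (edgeR adjusted p = 0.479 and 0.882). Drd4, the D2-type receptor of photoreceptors, was at 183 ± 8.17 CPM (SD, n = 4) in vehicle and 174 ± 30.7 (n = 5) in TMB (log2 -0.07 ± 0.11, edgeR adjusted p = 0.663). Its value with the offset was 0.17 ± 0.08 (edgeR adjusted p = 0.254). Adra2c, an inhibitory receptor of the alpha-2 class, which bromocriptine also binds, was at 13.7, 12.8, 13.4 and 12.3 CPM in vehicle and 6.58, 8.32, 11, 8.20 and 7.80 in TMB. It fell by 0.63 ± 0.13 (edgeR adjusted p = 0.0186), and with the offset the value was -0.17 ± 0.13 (adjusted p = 0.508), its transcript being 65.5% GC. Among the 6 receptors that were not called, the 95% interval without the offset was widest for Adra1a (-0.81 to 0.13) and narrowest for Drd4 (-0.30 to 0.16). Changes within those intervals could not be told from 0. The interval of Adra1d (-0.87 to -0.03), which is not adjusted for the number of genes tested, excluded 0.

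Downstream of the receptors, 33 genes of adenylyl cyclase and cAMP had 2 that rose and 3 that fell (15.2% called). The 38 genes of the Gq, phospholipase C, IP3 and calcium route also had 2 and 3 (13.2%). Both shares lie near the 14.7% of all genes, and the medians were -0.02 and -0.04. With the offset edgeR called none, although 5 and 4 had an unadjusted p under 0.05. Prkaca, the catalytic subunit of protein kinase A, was at 188, 164, 172 and 189 CPM in vehicle and 132, 156, 151, 146 and 145 in TMB. It fell by 0.29 ± 0.06 (edgeR adjusted p = 0.0187), against -0.12 ± 0.05 with the offset (adjusted p = 0.198). Of 30 immediate early genes, which follow cAMP and calcium, 1 was called (3.33%, against 14.7% of all genes). It was Ier5, which fell by 0.48 ± 0.11 (edgeR adjusted p = 0.0186) and by 0.39 ± 0.09 with the offset (adjusted p = 0.0456). Fos was at 9.93, 9.27, 15.5 and 18.1 CPM in vehicle and 10.1, 15.6, 25.6, 20.4 and 30.4 in TMB. TMB F1 lay among the low vehicle libraries and the log2 fold change of 0.63 ± 0.28 did not pass (edgeR adjusted p = 0.132). For Fos the value with the offset was 0.72 ± 0.27 (edgeR adjusted p = 0.178). Jun and Junb had values of -0.02 ± 0.12 and -0.34 ± 0.22 (edgeR adjusted p = 0.906 and 0.289). With the offset these were 0.16 ± 0.09 and 0.03 ± 0.15 (edgeR adjusted p = 0.356 and 0.939). Of 21 clock genes 3 rose and 1 fell (19% called). Dbp, an output of the clock, was at 147, 120, 118 and 141 CPM in vehicle and 46.5, 107, 79.7, 80.1 and 59.5 in TMB. It fell by 0.82 ± 0.18 (edgeR adjusted p = 0.0186), against -0.48 ± 0.11 with the offset (adjusted p = 0.0504), and 27.5% of its 50-base stretches occur in other transcripts.

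A further set of genes fell on both scales, named here after their values were seen because they were called in at least 8 of the 9 fits that left out a library and in all 9 such fits with the GC offset. Timm13, a chaperone of the mitochondrial intermembrane space, was at 38.9, 30.6, 33.3 and 43.6 CPM in vehicle and 16.4, 20.3, 19.6, 20.9 and 20.7 in TMB. It fell by 0.90 ± 0.11 (edgeR adjusted p = 0.00899), and by 0.63 ± 0.09 with the offset (adjusted p = 0.00822), and it overlaps Tmprss9 on the other strand. Pfdn6, a subunit of prefoldin, was at 21.5, 16.2, 19.6 and 25.4 CPM in vehicle and 9.12, 12.8, 11.6, 10.3 and 9.96 in TMB. Tmed9, a cargo receptor between endoplasmic reticulum and Golgi, was at 58.8, 50.4, 52.4 and 64.7 CPM in vehicle and 36.1, 41.9, 40.1, 35.3 and 36.5 in TMB. Rbm8a, a core protein of the exon junction complex, was at 76.2, 70.0, 68.7 and 81.5 CPM in vehicle and 52.8, 60.2, 56.0, 53.8 and 53.0 in TMB. Rnf5, Srp54a and Tceal3 met the same criterion, as did Arl3 and Rps29, described above. The levels of Rnf5 and Srp54a are uncertain, as 37.6 and 75.2% of their 50-base stretches also occur in other transcripts. Pfdn6, Tmed9 and Rbm8a fell by 0.95 ± 0.14, 0.58 ± 0.09 and 0.43 ± 0.07 (edgeR adjusted p = 0.0107 for each), and vehicle and TMB did not overlap in any of them.

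Clone-named genes, pseudogenes, X-inactivation genes and Y-linked genes were passed over (26 higher and 1 lower). The 10 largest rises among the other genes averaging 5 CPM or more in vehicle or TMB ran from 0.65 to 1.87 on the log2 scale. They were Slc25a37, Piwil2, Chrna5 (a nicotinic receptor subunit), Cmc4, Utp14b, Slc17a2 (an anion transporter), Plscr4 (a phospholipid scramblase), Kif15 (a mitotic kinesin), Prpf39 (a splicing factor of the U1 particle) and Slc25a18 (a mitochondrial glutamate carrier). With the GC offset 6 of them were called, Slc25a37, Piwil2, Cmc4, Kif15, Prpf39 and Slc25a18. The 10 largest falls ran from -4.13 to -1.02 and were Cryba4, Crybb1, Nr2f6 (an orphan nuclear receptor), S100a6 (a calcium-binding protein), Rpl29, Cox11 (an assembly factor of cytochrome c oxidase), Srp54a (a subunit of the signal recognition particle), Slc16a8, Rps29 and Prr7. Among these, Cox11, Srp54a and Rps29 were called with the offset. Nr2f6, Cmc4, Cox11, Rpl29 and Srp54a share between 33.7 and 75.2% of their 50-base stretches with other transcripts and are uncertain.

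In some of the large changes 1 or 2 libraries stood apart from the rest of their group. Camk1d, a calcium- and calmodulin-dependent kinase, was at 63.8, 330, 183 and 63.2 CPM in vehicle and 322, 325, 319, 366 and 324 in TMB. The 5 TMB libraries were alike, whereas vehicle ran from 63.2 to 330 CPM with vehicle F2 at the level of TMB, and the log2 fold change of 1.05 ± 0.38 did not pass (edgeR adjusted p = 0.0773). Without vehicle F2 it passed, at 1.68 ± 0.29 (edgeR adjusted p = 0.00874). Wild-type libraries held 254 to 322 CPM on the 13-library scale. Slc25a37, the mitoferrin that carries iron into mitochondria, had the largest rise among genes named by fold and was at 16.7, 18.1, 19.8 and 16.6 CPM in vehicle and 66.0, 61.2, 22.1, 105 and 69.9 in TMB. It rose by 1.87 ± 0.31 (edgeR adjusted p = 0.0126), and by 1.84 ± 0.30 with the offset (adjusted p = 0.0146), with TMB F4 close to vehicle. Lens crystallins carried the largest falls. Cryba4 was at 51.7, 0.271, 236 and 6.83 CPM in vehicle and 1.30, 0.868, 2.06, 3.60 and 13.2 in TMB, a log2 fold change of -4.13 ± 1.14 (edgeR adjusted p = 0.0329), and the call was lost without vehicle M4. Leaving out that library moved Crybb1 from -3.69 to -1.45 (edgeR adjusted p = 0.289) and S100a6 from -1.16 to -0.55 (adjusted p = 0.0460). Leaving out vehicle F2 moved Rpl29 from -1.11 to -0.58 (edgeR adjusted p = 0.0329) and Slc16a8 from -1.07 to -0.66, where the call was lost (adjusted p = 0.114).

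**Figure D5:**
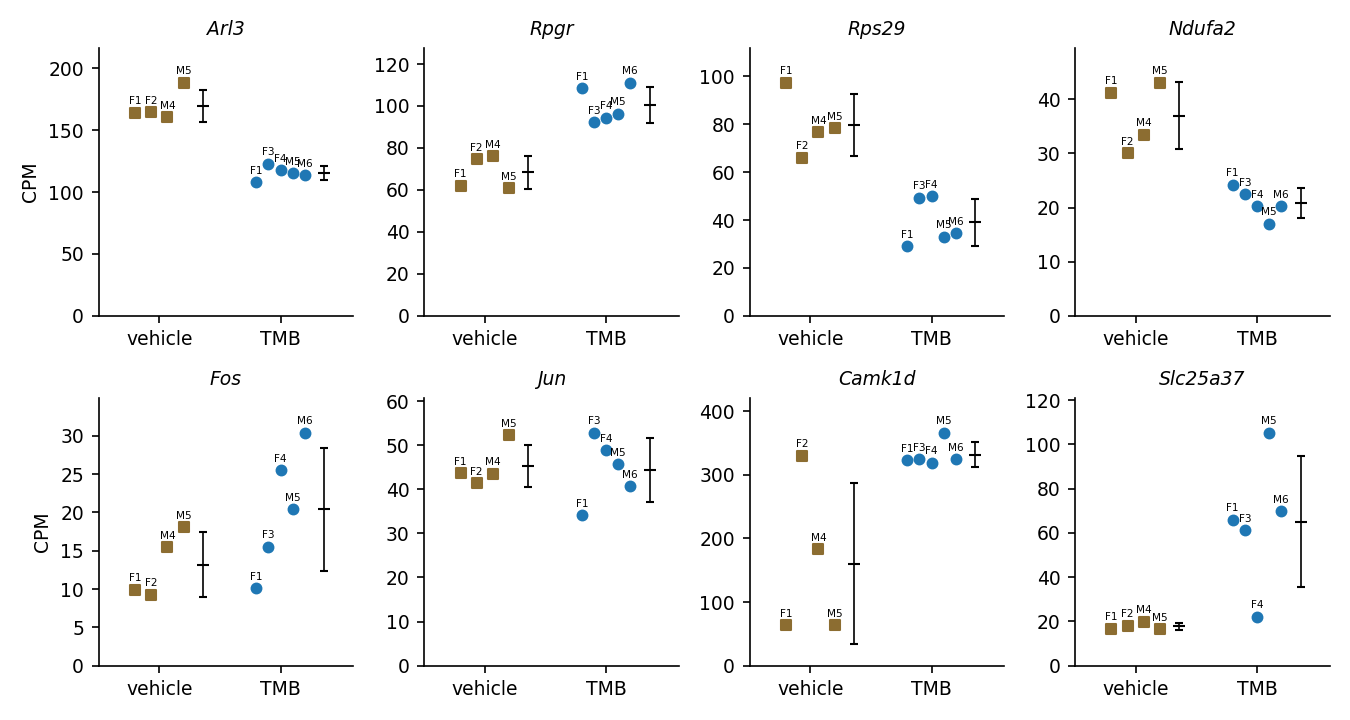
CPM of 8 genes in each library, labelled by library, with the group mean and SD beside the points (vehicle squares, n = 4, TMB circles, n = 5). Arl3, Rps29 and Ndufa2 lie lower and Rpgr higher in all 5 TMB libraries, Fos, Jun and Camk1d overlap between groups, and Slc25a37 is between 61.2 and 105 in every TMB library except F4 at 22.1.

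Markers of tissue that a retina dissection can carry moved with some of these values. All 10 lens genes tested had negative log2 fold changes (3 called, median -3.66), and their sum ran from 7.71 to 3100 CPM in vehicle and 13.7 to 276 in TMB. The 18 pigment epithelium genes summed to 486 to 1061 CPM in vehicle and 544 to 714 in TMB, with 1 that fell (Slc16a8, a lactate transporter). The 4 skeletal muscle genes summed to 16.7 to 28.8 and 12.7 to 16.2 CPM, and the 11 genes of ciliary body and iris to 779 to 903 and 768 to 878, with 0 called in both (3 muscle and 0 ciliary genes at unadjusted p under 0.05, all lower). The part of this tissue in other genes was not tested, and with the lens-rich vehicle M4 left out 2013 genes were called.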

How the data were processed

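Retinal polyadenylated RNA was prepared with an Illumina TruSeq kit per the labels, while the methods of the study give that kit for another mouse line and for these mice name only a sequencing company. Per the labels and the methods of the study, the authors checked reads with FastQC and RSeQC, trimmed them with Trimmomatic, aligned them to GRCm38 (mm10) with STAR and counted them per gene with HTSeq. The deposited tables hold raw counts for 29700 nuclear and 16 mitochondrial genes, and how strand was handled is not stated in them or in the methods. Fold changes and adjusted p-values of the authors (DESeq2, against wild type) were not used, and 4 duplicated wild-type columns were left out.

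Counts of the 9 Rpe65-/- libraries were fitted in R 4.3.3 with edgeR 4.0.16 (TMM scaling, filterByExpr by group, quasi-likelihood F test, Benjamini-Hochberg, threshold 0.05), with no covariate. Values after ± are standard errors unless given as SD, and CPM are scaled by nuclear counts and TMM factors. The GC offset is a per-library cubic trend on the GC percentage of the longest transcript in GENCODE M21 (99.6% of genes). That transcript was taken whatever its annotated type. For Rps29, Pfdn6, Tmed9, Slc25a37 and Slc17a7, among others, it is annotated as a transcript with a retained intron, so its GC content may differ from that of the RNA counted. Alternatives used DESeq2 1.42.0, limma 3.58.1 (prior count 2), other filters, covariates and sets of libraries. Shares were compared with an exact permutation test, and 1 of the 2 shares tested is not reported here. The fitting code was tested on simulated data.

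Named genes were, per direction, the 10 largest called changes averaging 5 CPM or more in vehicle or TMB. Clone-named genes, pseudogenes, X-inactivation genes and Y-linked genes were passed over there (26 higher and 1 lower). Also named were up to 4 members per list with the smallest p, the drug receptors, Fos, Jun, Junb, Camk1d and mitochondrial genes. The text gives a selection of all these genes. The 43 gene lists and the members were chosen with earlier results of these data known. Libraries within a group differed by more than counting noise, and p-values measure the spread between mice of these groups.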

Additional observations from a re-analysis of the deposited data

Results flagged for a closer look

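In 18 of 226 groups of 4 or 5 libraries 1 library stood apart by the Dixon test, which chance alone does in about 1 group in 20. Vehicle M4 stood apart for Crybb1 (168 CPM, others 0.609 to 26.3), S100a6 (18.9, others 4.87 to 6.8), Slc25a18 (4.45, others 2.84 to 2.95), Piwil2 (2.94, others 1.74 to 1.94) and Adra1d (4.09, others 5.82 to 6.08). It is also the library with 3100 CPM of lens transcripts. Vehicle F2, whose counts contradict its sex label, stood apart for Rpl29 (92.2 CPM, others 30.1 to 36.5), Utp14b (19.5, others 25.4 to 26.3), Rpl11 (120.5, others 152.6 to 158) and the mean level of the photoreceptor ribbon synapse list (0.14 above the mean of the 9 libraries in log2, others -0.03 to -0.01). Vehicle M5 was high for Arl3 at 188 CPM, where the others had 161 to 165. TMB M6 was high for Cryba4 (13.2 CPM, others 0.868 to 3.60) and Crybb1 (12.6, others 0.868 to 2.93). TMB F1 was high for Cmc4 (11.9 CPM, others 7.01 to 8.20) and low for Timm13 (16.4, others 19.6 to 20.9) and the ribbon synapse list (-0.10, others up to 0.02). TMB M5 was high for Camk1d (366 CPM, others 319 to 325) and low for Slc17a2 (3.87, others 5.36 to 5.93) and for subunits of complexes II to V (-0.12, others -0.07 to -0.05).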

How the results depend on the processing

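With all 9 libraries edgeR called 2402 genes, and it called 256 with the GC offset (191 of them among the 2402), 294 with an offset for GC content and transcript length (216 among the 2402), 0 with all 13 libraries in 1 fit (3064 at unadjusted p under 0.05, smallest adjusted p 0.0971) and 0 against a fold change of 1.2 (1587 at unadjusted p under 0.05). Members of the gene lists called numbered 187, and 50, 53, 0 and 0 under these settings. With the GC offset 67.2% of calls were lower, against 51.7% without it. Leaving out each library in turn gave 3 to 3256 genes, 1 to 259 list members and a mitochondrial share difference of 0.626 to 0.964 percentage points. With the GC offset and without vehicle F1, F2, M4 or M5, 19, 576, 523 and 13 genes were called, and 6, 103, 81 and 3 list members. Without TMB F1, F3, F4, M5 or M6 these were 110, 327, 100, 67 and 73 genes, and 28, 55, 25, 19 and 22 list members. The offset for GC and length, the left-out fits with the GC offset, sex read from Y-linked counts as a covariate (2260 genes) and the fit without vehicle F2 and M4 (3102) were chosen after seeing the data. On the scale of nuclear counts 11 rather than 0 mitochondrial genes were called (0, 7 or 11 with a library left out, added after seeing the data), and mt-Co1, mt-Nd1, mt-Nd4 and mt-Rnr2 changed sign to 0.33, 0.35, 0.33 and 0.37. DESeq2 called 3383 genes, limma-trend 2406, the other size factors 2393, no low-count filter 2221, a mean of at least 100 counts 2716 and labelled sex as a covariate 1729.

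Library numbers 1, 4 and 5 occur in both groups. Deviations of same-numbered libraries from their group means correlated at 0.08, 0.06 and 0.07, so the numbers were not read as pairs. A replicate block on these 6 libraries called 1026 genes and 115 list members, and 61 and 23 with the block and GC offset together. With 1 retina per mouse and 14155121 to 16861577 counts per library, 3 counts in a library amount to 0.183 to 0.219 CPM. This floor covers counting error only, and the median spread between libraries of a group was 0.11 in vehicle and 0.12 in TMB on the log2 scale. Except where stated, the cause of these differences was not tested.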

Other observations

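A stretch of chromosome 14 held 3 of the largest rises, chosen here after their values were seen. Slc25a37 (chr14:69241847-69285112), Piwil2 (chr14:70372476-70429383), a protein of germline piRNA silencing, and Gm9195 (chr14:72426012-72491838) lie within 4 Mb of one another on GRCm38. Piwil2 was at 1.74, 1.76, 2.94 and 1.94 CPM in vehicle F1, F2, M4 and M5 and 5.93, 5.86, 2.49, 10.9 and 5.22 in TMB F1, F3, F4, M5 and M6. It rose by 1.54 ± 0.35 on the log2 scale (edgeR adjusted p = 0.0191). Gm9195 was at 1.38, 0.541, 1.29 and 1.69 CPM in vehicle and 7.24, 11.3, 1.68, 13.3 and 6.75 in TMB, and rose by 2.69 ± 0.49 (edgeR adjusted p = 0.0148). TMB F4 was at or near the vehicle level for all 3 genes and the other 4 TMB libraries were above it. On the scale of all 13 libraries wild type held 58.2 to 72.0 CPM of Slc25a37, 8.67 to 12.2 of Piwil2 and 15.2 to 18.2 of Gm9195. Of 57 other genes tested within 4 Mb of Slc25a37, 13 were called (22.8%, against 14.7% of all genes). With the GC offset, where 1.57% of all genes were called, 2 of them were called, Piwil2 and Gm9195. The stretch was chosen by these genes and the counts include them, so the shares cannot show an excess of calls in the region. Around Camk1d (chr2:5293456-5714515) 26 other genes were tested within 2 Mb, of which 4 were called (15.4%) and 0 with the offset. Genotypes of the mice in these regions were not analysed here.

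Further groups of genes gave scattered calls. The proteasome had 6 of 29 genes lower and 1 higher (24.1% called, against 14.7% of all genes). With the GC offset 3 were lower and 0 higher, while 1.57% of all genes were called. Among the 3 was Psmc1, an ATPase of its cap, which fell by 0.27 ± 0.06 without the offset (edgeR adjusted p = 0.0186). Glutamate, GABA and glycine receptors had 4 of 32 genes higher and 1 lower (15.6% called, near the share of all genes). Their median of 0.12 became -0.03 with the offset. Grik2, a kainate receptor subunit, was at 29.8, 34.1, 32.7 and 31.8 CPM in vehicle and 47.0, 39.0, 37.6, 45.1 and 44.3 in TMB and rose by 0.41 ± 0.08 (edgeR adjusted p = 0.0178), while its value with the offset was 0.10 ± 0.06 (adjusted p = 0.448). Rgs5, a GTPase activator that marks pericytes, was at 63.5, 52.1, 62.7 and 61.3 CPM in vehicle and 94.9, 85.4, 118, 91.1 and 70.5 in TMB. It rose by 0.62 ± 0.12 without overlap (edgeR adjusted p = 0.0151), and with the offset the value was 0.40 ± 0.13 (adjusted p = 0.129). Its list of 19 vessel, pericyte and choroid genes had 1 higher and 3 lower (21.1% called), with a median of -0.24, or -0.01 with the offset. Neat1, the long noncoding RNA of paraspeckles, fell by 0.63 ± 0.17 (edgeR adjusted p = 0.0319), with TMB F1 and F3 above vehicle F2, and by 0.68 ± 0.16 with the offset (adjusted p = 0.0488).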
